A study of Bos taurus with 6 samples.

Results

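The ATP-binding cassette (ABC) gene superfamily was compared between 2 sorted populations of cells from the endometrium of the cow (Bos taurus), the side population (SP) and the main population (MP). The endometrium lines the uterus. Members were all rows of the deposited expression tables whose gene symbol is ABC, a subfamily letter from A to G and a number. The rule found 44 rows among 34733 named genes. They carry 43 symbols, since ABCD4 is listed as 2 entries with the same locus. Subfamily A held 11 rows, B 9, C 10, D 5, E 1, F 3 and G 5.

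ABC proteins share an ATP-binding cassette that hydrolyses ATP. In most members it drives the movement of lipids, drugs, peptides, metals or metabolites across a membrane, while the E and F subfamilies lack membrane-spanning parts and act on ribosomes and translation. ABCG2 (breast cancer resistance protein) and ABCB1 (P-glycoprotein) export many foreign compounds, among them the DNA dye Hoechst. Cells that keep this dye low form the side population, which has served to enrich stem-like cells in many tissues, and both exporters are also known from the endothelium of blood vessels.

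Per the labels' protocols, luteal phase uteri came from slaughterhouses, and endometrium from between the caruncles, freed of luminal epithelium, was treated with 0.2% collagenase for 1 h. The cells, described as stromal, took up Hoechst dye at 10 µg/mL over 90 min, with or without 50 µM verapamil, a transporter inhibitor, and dead cells were excluded with propidium iodide. SP cells pumped the dye out and MP cells kept it, and each population gave 3 libraries. The age and breed of the cows are not given in the labels. The gate itself rests on the activity of ABC exporters, so the populations were selected on what some members do, though not on their RNA. The labels do not say that replicates came from separate animals, so the p-values given here reflect variation among these libraries alone, part of which can be technical.

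The values are FPKM, that is fragments scaled to transcript length and to library size, so levels can be set side by side between genes. Counted in 1e+06 fragments, depth read from the smallest steps was near 11.3 to 21.7 in SP and 22.3 to 35.5 in MP. At these depths 1 fragment on a transcript of 1 kb is worth 0.0460 to 0.0884 FPKM in SP and 0.0282 to 0.0448 FPKM in MP. Marker RNA of other cell types moved with the populations. Of 20 endothelial markers 18 were higher in SP by the test given below and none was lower; their summed level was 2196 to 3537 FPKM in SP and 263 to 1280 FPKM in MP, and none of the 20 was listed at 0 in any library. Of 20 markers of stromal fibroblasts (the labels call the cells stromal) 16 were lower in SP and none was higher, with sums of 387 to 642 FPKM in SP and 3635 to 13108 FPKM in MP. Of these 16, DPT and HAND2 were under 1 FPKM in every SP library and could enter the test only by being higher in MP, so their direction was fixed. Of 8 tested markers of T and NK cells all 8 fell, 6 of them with the same limit, and of 3 of B and plasma cells 2 fell, both with that limit. None of 15 tested epithelial markers passed, nor did the 1 tested erythroid marker. Epithelial RNA was present and uneven among libraries. In replicate order, the 16 listed epithelial markers summed to 235, 2042 and 1170 FPKM in SP and 1162, 5197 and 1362 FPKM in MP. In bulk RNA, fewer cells of a type and less RNA per cell cannot be told apart. MP replicate 3 had the highest endothelial sum and the lowest fibroblast sum of the MP libraries, and stood nearest to SP in both. In the summed myeloid, T and NK, B and plasma, and mast cell markers it was instead the highest of all libraries and stood farthest from SP. The last replicate of each population is 3 in the titles and 4 in its column header; the titles are followed here, and the labels do not explain the difference. Only the MP columns are headed with the word micro. Its meaning is not explained either, so a difference in handling behind it and the population cannot be told apart.

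Summed over the 44 rows, ABC RNA came to 548, 353 and 385 FPKM in the SP libraries and 130, 133 and 248 FPKM in the MP libraries, each in the order of replicates 1 to 3. The SP libraries all lay above the MP libraries, with MP replicate 3 closest. Most of the gap came from a few genes. ABCB1, ABCG1 and ABCG2 together held 67.9%, 59.0% and 58.0% of the ABC sum in SP replicates 1 to 3, against 20.2%, 27.0% and 52.0% in MP replicates 1 to 3. ABCG2 was the ABC gene with the highest FPKM in 5 of the 6 libraries, and in SP replicate 3 ABCG1 was.

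**Figure D1:**
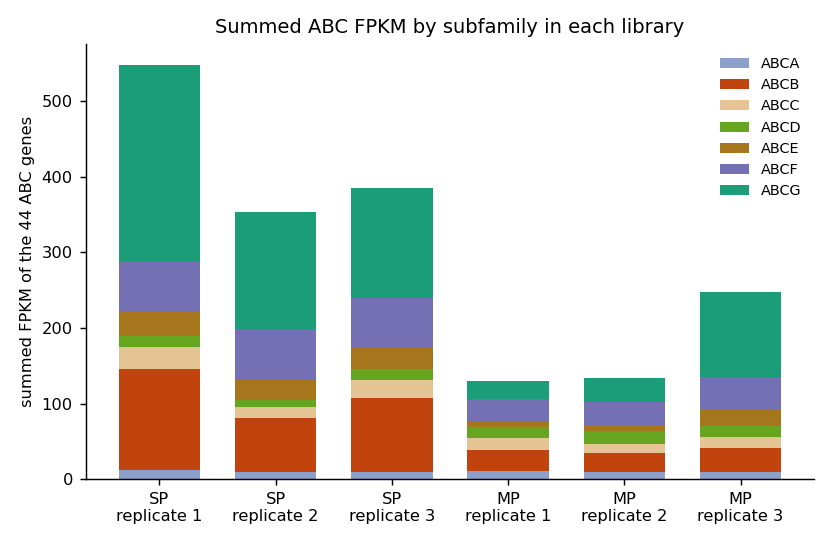
Summed FPKM of the 44 ABC genes in each of the 6 libraries, with 1 bar for each library and 1 colour for each subfamily from A to G. The totals run from 353 to 548 FPKM in SP and from 130 to 248 FPKM in MP, and the B and G subfamilies fill most of the difference.

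By subfamily, the sums of B, E, F and G in SP lay above those in MP without overlap, and those of A, C and D overlapped. The G sum was 187 ± 64.4 FPKM in SP and 55.9 ± 49.3 FPKM in MP, and the B sum was 101 ± 31.0 and 28.3 ± 3.70 FPKM (SD, n = 3 each). Within B, ABCB1 alone averaged 81.2 FPKM in SP and 8.37 FPKM in MP, so the gap in the B sum was largely that of 1 gene. The F sum was 65.4 ± 0.835 FPKM in SP and 35.2 ± 7.60 FPKM in MP, and E, with ABCE1 alone, was at 29.6 ± 2.81 and 11.8 ± 8.44 FPKM (SD, n = 3 each). The A sum was 10.4 ± 1.95 and 10.2 ± 0.572 FPKM. The C sum was 22.3 ± 6.97 FPKM in SP and 14.3 ± 2.52 FPKM in MP, and the D sum 13.1 ± 2.83 and 14.8 ± 1.49 FPKM (SD, n = 3 each). These sums are a description with no test.

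Of the 44 rows, 26 reached 1 FPKM in at least 3 of the 6 libraries and were tested within a limma fit of all 12127 such genes on log2(FPKM + 1). In what follows rose, fell and passed refer to a Benjamini-Hochberg adjusted p under 0.05 in this fit, fold changes are SP minus MP on that log2 scale, where low genes appear to change less than they did, and ± after a fold change is its SE. ABCB1, ABCB4, ABCE1, ABCF1, ABCF2, ABCG1 and ABCG2 rose in SP, 2 fell, ABCB6 among them, and 17 did not pass. For ABCB4 the direction was fixed by the filter, since only its SP values reached 1 FPKM. Of the tested ABC genes 26.9% rose and 7.69% fell, against a background of 20.5% and 18.7% of all tested genes. The share called in either direction was 34.6% for the ABC genes and 39.2% over all genes, so the number of calls does not set the family apart. The median fold change was 0.25 over the tested ABC genes and 0.01 over all genes. All 3 SP values lay above all 3 MP values in 9 tested ABC genes and below them in 4, where 28.3% and 26.5% of all tested genes did so.

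The count changed when single libraries were left out, and so did the calls over all genes. Without SP replicates 1, 2 and 3 the ABC genes that rose numbered 1, 5 and 1, and those that fell 0, 0 and 1. The share called over all genes was then 21%, 26.6% and 26.8%, against 39.2% with all libraries. Without MP replicates 1, 2 and 3, 3, 3 and 7 rose and 0, 0 and 4 fell, with 22.6%, 21.1% and 38.7% of all genes called. ABCB1 rose in each of these 6 fits. ABCB4 passed in all 12 alternative fits that tested it, but missed the filter and was not tested without an SP library. Since only its SP values reached 1 FPKM, that filter admits it only when SP is the higher group. Passes under that filter are therefore no independent support for its direction. With no filter on low values, where this limit is absent, its fold change was 1.79 (limma adjusted p = 0.0197). With each library rescaled to an equal sum, 68.0% of the calls over all genes were higher in SP, against 52.3% as deposited, and no ABC gene fell (2 as deposited).

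**Figure D2:**
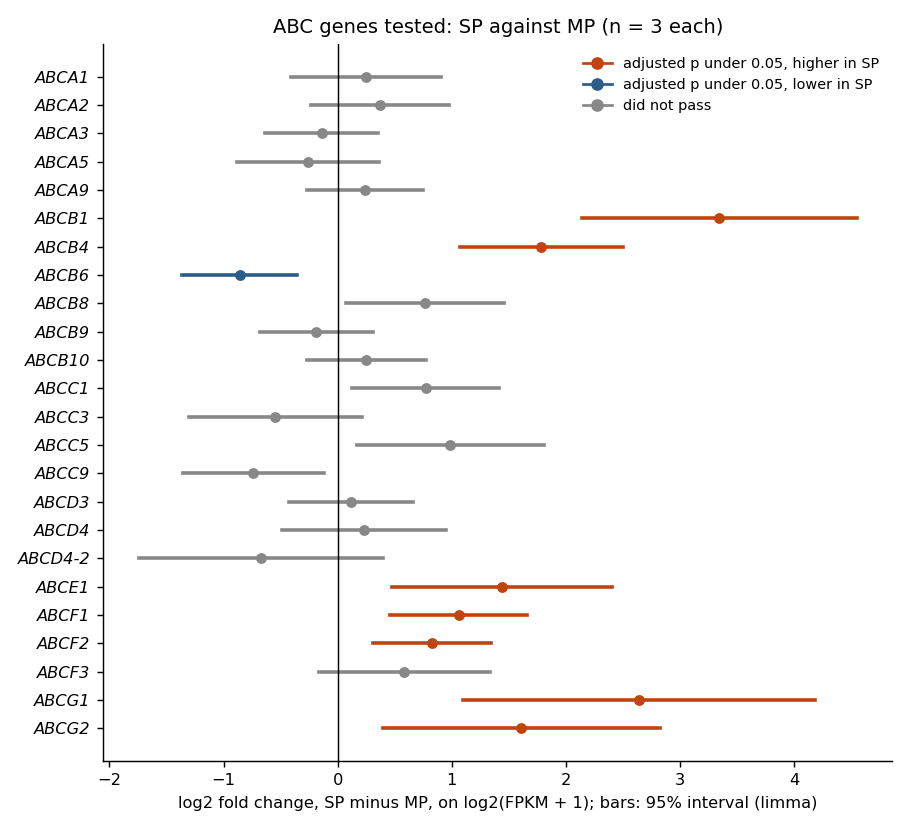
Log2 fold change of 24 of the 26 tested ABC genes, SP minus MP, on the log2(FPKM + 1) scale, with points for the limma estimate and bars for its 95% interval (n = 3 libraries each). Red marks the 7 genes that rose in SP, blue the 1 shown that fell and grey the 16 shown that did not pass; ABCB1 has the highest estimate at 3.34.

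The exporters of foreign compounds come first. ABCB1 (chr4:32879459-32982658, build ARS-UCD1.2; spans given here cover the whole locus, introns included) pumps hydrophobic drugs and dyes out of the cell. In replicate order it reached 111, 54.1 and 78.3 FPKM in SP against 3.76, 4.50 and 16.8 FPKM in MP. The groups did not overlap, and MP replicate 3 was the highest of its group. The fold change was 3.34 ± 0.52 (limma adjusted p = 0.0042). Ranked within each library, ABCB1 lay at percentiles 92.7, 87.6 and 92.2 of the tested genes in SP and at 33.4, 37.9 and 70.2 in MP. The call held in 18 of 19 alternative fits and was lost without the libraries numbered 2 (limma adjusted p = 0.052).

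ABCG2 (chr6:36475491-36603215) also exports the dye, and the labels name it as the target of verapamil. Its levels were 138, 97.9 and 66.1 FPKM in the SP libraries and 17.1, 23.7 and 71.8 FPKM in the MP libraries, in replicate order. MP replicate 3 lay above SP replicate 3, so the groups overlapped. The fold change was 1.61 ± 0.52 (limma adjusted p = 0.0432), while the exact two-sided permutation test gave p = 0.2, where 0.1 is the smallest p that 3 against 3 libraries allow. The call held in 10 of 19 alternative fits and was lost in every fit that left out 1 library other than MP replicate 3 (limma adjusted p from 0.0553 to 0.131). Without MP replicate 3 the fold change was 2.21 (limma adjusted p = 0.00572). In percentiles of the tested genes ABCG2 ranked high throughout, at 90.6 to 94.0 in SP and at 71.5 to 90.1 in MP. Its listed locus is shared with LOC781421, which was at 5.51 to 7.82 FPKM in SP and 3.58 to 7.29 FPKM in MP.

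ABCB4, a flippase for phosphatidylcholine best known from bile formation, lies 24.5 kb from ABCB1 on chromosome 4. It was at 5.12, 1.74 and 3.61 FPKM in SP and at 0.348, 0.119 and 0.251 FPKM in MP. The fold change was 1.79 ± 0.31 (limma adjusted p = 0.00576). As every MP library was under 1 FPKM, ABCB4 could enter the test only by being higher in SP, and its direction is no independent result. ABCB1 and ABCB4 are close paralogues, and how the counting split reads between similar copies is not given in the sources used here. In each SP library ABCB4 was far below its neighbour.

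**Figure D3:**
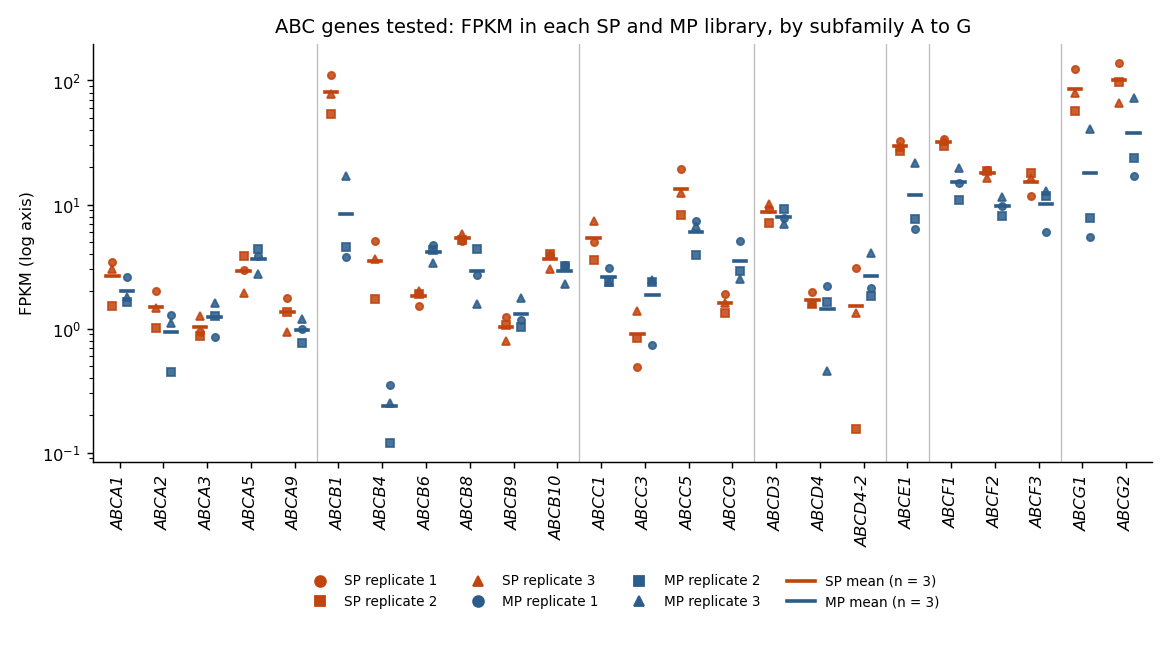
FPKM of 24 of the 26 tested ABC genes in each library on a log axis, ordered by subfamily, with 1 symbol for each library (red SP, blue MP) and a short line for the mean of each group of 3. ABCB1, ABCG1 and ABCG2 reach 54.1 to 138 FPKM in SP, and for these genes and ABCE1 the triangle of MP replicate 3 stands above the other MP libraries.

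The multidrug resistance proteins of subfamily C export organic anions, often conjugated to glutathione. None of the 4 tested C genes passed. ABCC5, an exporter of cyclic nucleotides, had the highest level among them, at 19.3, 8.21 and 12.4 FPKM in SP and 7.42, 3.93 and 6.71 FPKM in MP. Its groups did not overlap, and the fold change was 0.99 ± 0.35 (limma adjusted p = 0.0579; 95% interval from 0.17 to 1.81). ABCC5 passed in 4 of 19 alternative fits, 2 of them other scalings. ABCC1, which exports glutathione conjugates such as leukotriene C4, was at 4.95, 3.59 and 7.42 FPKM in SP and 3.10, 2.35 and 2.36 FPKM in MP. All SP values again lay above the MP values, with a fold change of 0.77 ± 0.28 (limma adjusted p = 0.0588) that passed in 2 of 18 alternative fits. ABCC9, the sulphonylurea receptor SUR2 of ATP-sensitive potassium channels in vascular muscle, went the other way, at 1.91, 1.34 and 1.60 FPKM in SP and 5.04, 2.88 and 2.50 FPKM in MP. Its fold change was −0.74 ± 0.27 (limma adjusted p = 0.0587), and it passed in 2 of 18 alternatives. KCNJ8, the pore that pairs with SUR2, fell by 1.57 ± 0.43 (limma adjusted p = 0.0255), from 9.55 ± 5.15 FPKM in MP to 2.50 ± 1.34 FPKM in SP (SD, n = 3 each). KCNJ8 is also a pericyte marker, and of the 13 tested markers of pericytes and smooth muscle 9 fell and none rose. ABCC3, an exporter of bile salts and glucuronides, was at 0.492 to 1.38 FPKM in SP and 0.739 to 2.45 FPKM in MP and did not pass (limma adjusted p = 0.21).

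Sterol export was represented by ABCG1, which moves cholesterol to lipoprotein particles, and ABCA1, which loads apolipoprotein A-I. ABCG1 (chr1:142488608-142554261) was at 123, 56.4 and 79.2 FPKM in SP and 5.43, 7.83 and 40.4 FPKM in MP. The groups did not overlap, and MP replicate 3 was the MP library closest to SP. The fold change was 2.64 ± 0.67 (limma adjusted p = 0.019), called in 12 of 19 alternative fits. Leaving out SP replicates 1 or 3 or MP replicates 1 or 2 ended the call (limma adjusted p from 0.0502 to 0.0649). ABCA1 (chr8:94600618-94737880) was far lower, at 3.47, 1.51 and 3.04 FPKM in SP and 2.62, 1.64 and 1.80 FPKM in MP, and its groups overlapped. It did not pass, with a fold change of 0.25 and a 95% interval from −0.41 to 0.91 (limma adjusted p = 0.498).

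Among 15 other genes of sterol efflux and the liver X receptors that control it, all tested, 4 rose, 2 fell and 9 did not pass. Their median fold change was 0.19, and over all tested genes 20.5% rose and 18.7% fell. The lipoprotein genes PLTP, a phospholipid transfer protein, and APOE, apolipoprotein E, fell by 4.13 ± 0.33 and by 3.79 ± 0.47 (limma adjusted p = 0.000621 and 0.00228). PLTP went from 108 ± 27.8 FPKM in MP to 5.36 ± 2.21 FPKM in SP (SD, n = 3 each). Macrophages are also known to express APOE, and of 12 tested myeloid markers 10 fell and none rose, 5 of the 10 being under 1 FPKM in every SP library, which fixed their direction. The summed level of all 14 listed myeloid markers was 123 to 146 FPKM in SP and 686 to 1237 FPKM in MP, and SPI1 among them is listed at 0 in 2 SP libraries. Most of the SP sum was CD14 and CD68, which did not pass. They averaged 97.6 and 22.4 FPKM in SP and 63.7 and 33.3 FPKM in MP. The part of myeloid RNA in the values of APOE and PLTP was not tested. SCARB1, the receptor for high-density lipoprotein, rose by 2.05 ± 0.42, with 226, 130 and 125 FPKM in SP and 26.3, 26.7 and 68.3 FPKM in MP. The others that rose, SCD, SREBF1 and MYLIP, are named after their values were seen, with fold changes of 1.50, 0.94 and 1.11.

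The transporters of mitochondria and related membranes did not move one way. ABCB6, a porphyrin carrier (chr2:107162132-107170081), was at 1.53, 1.91 and 2.00 FPKM in SP and 4.71, 4.29 and 3.36 FPKM in MP. It fell, with a fold change of −0.86 ± 0.22 (limma adjusted p = 0.0195), and the call held in 11 of 18 alternative fits. It was lost after rescaling to equal sums (limma adjusted p = 0.0766) and without SP replicates 1 or 2 or MP replicates 1 or 2 (0.0531 to 0.0683).

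ABCB10, of the inner mitochondrial membrane, and ABCB8, linked to mitochondrial iron export, had the opposite sign to ABCB6. ABCB10 overlapped between the groups, with 3.91, 3.99 and 3.03 FPKM in SP against 3.23, 3.22 and 2.28 FPKM in MP (fold change 0.25, 95% interval from −0.27 to 0.78). ABCB8 was at 5.03, 5.22 and 5.75 FPKM in SP and 2.71, 4.40 and 1.58 FPKM in MP, with no overlap and a fold change of 0.76 ± 0.30 that did not pass (limma adjusted p = 0.0754), except without MP replicate 2 (0.0401). The listed locus of ABCB8, chr4:113577075-113623178, is also that of NOS3, the endothelial nitric oxide synthase. NOS3 was at 26.3, 30.0 and 28.6 FPKM in SP and 2.53, 4.96 and 12.7 FPKM in MP (fold change 2.15 ± 0.46, limma adjusted p = 0.0107), and reads of this pair may not be told apart. ABCB9, a lysosomal peptide transporter, was between 0.790 and 1.75 FPKM in all libraries and did not pass (limma adjusted p = 0.508).

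Of 17 tested entries of 16 haem and iron-sulphur genes, 1 rose, 3 fell and 13 did not pass. Their median fold change was −0.19, and over all tested genes 20.5% rose and 18.7% fell. GLRX5, a glutaredoxin that hands on iron-sulphur clusters, fell by 0.90 ± 0.24. UROD, an enzyme of haem synthesis named after its values were seen, fell by 1.11 ± 0.33. One of the 2 entries of SLC25A37, the mitochondrial iron importer mitoferrin, rose by 1.28 ± 0.38, from 0.568, 0.452 and 2.76 FPKM in MP to 3.95, 3.43 and 4.59 FPKM in SP. The other entry overlapped, at 9.03, 4.48 and 8.18 FPKM in SP and 5.52, 5.50 and 5.03 FPKM in MP. It did not pass (fold change 0.33, limma adjusted p = 0.375).

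The members of subfamily D other than ABCD4 carry fatty acyl-CoA into peroxisomes. ABCD3, the most abundant peroxisomal member, did not pass and overlapped between the groups, at 9.26, 7.04 and 10.0 FPKM in SP and 7.73, 9.13 and 6.97 FPKM in MP (fold change 0.12, 95% interval from −0.42 to 0.67).

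ABCD4, a carrier of vitamin B12 in the lysosome, is listed as 2 entries at chr10:85630970-85647007. The first was at 1.97, 1.57 and 1.60 FPKM in SP and 2.19, 1.63 and 0.454 FPKM in MP, and the other at 3.09, 0.153 and 1.33 FPKM in SP and 2.10, 1.82 and 4.07 FPKM in MP. How the counting split reads between these entries is not stated in the labels, and neither passed. Added together they gave 5.05, 1.72 and 2.93 FPKM in SP and 4.30, 3.45 and 4.53 FPKM in MP, with overlap.

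Among 16 tested peroxisomal fatty acid genes 1 rose, 2 fell and 13 did not pass, with a median fold change of −0.15. PHYH, which starts the breakdown of phytanic acid, and HSD17B4, a multifunctional enzyme of peroxisomal beta-oxidation, fell by 0.88 ± 0.28 and by 0.75 ± 0.24.

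Of the 4 members that act on ribosomes and translation, 3 rose, where 20.5% of all tested genes did. ABCE1, which splits ribosomes after termination (chr17:13155131-13269725), was at 32.7, 27.1 and 29.1 FPKM in SP and 6.37, 7.59 and 21.6 FPKM in MP. ANAPC10, a subunit of the anaphase-promoting complex, is listed with the same span, at 3.15 to 4.63 FPKM in SP and 3.12 to 5.54 FPKM in MP (fold change −0.03, limma adjusted p = 0.925), and reads of this pair may not be told apart. ABCF1, which helps initiation (chr23:28394981-28408133), was at 34.0, 29.4 and 32.8 FPKM in SP and 15.0, 10.9 and 19.7 FPKM in MP. ABCF2 (chr4:113788361-113803048) was at 18.9, 18.8 and 16.4 FPKM in SP and 9.69, 8.15 and 11.5 FPKM in MP. None of the 3 overlapped between the groups, and SP libraries lay close to each other while MP replicate 3 was the highest MP library in each. The fold changes were 1.44 ± 0.42, 1.06 ± 0.26 and 0.83 ± 0.22 (limma adjusted p = 0.0294, 0.0169 and 0.0231). The calls held in 11, 14 and 11 of 19 alternative fits. ABCE1 and ABCF2 were each lost without any 1 library other than MP replicate 3, and ABCF1 without SP replicates 1 or 3 or MP replicate 2 (limma adjusted p from 0.053 to 0.0928 over these fits). ABCF3 overlapped, at 11.6, 18.0 and 16.3 FPKM in SP and 6.01, 11.7 and 12.8 FPKM in MP, and did not pass (fold change 0.59, 95% interval from −0.16 to 1.33; limma adjusted p = 0.178).

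Genes that act with these proteins in ribosome recycling, rescue and initiation were described from a separate list. Of 14 tested, 7 rose, none fell and 7 did not pass, with a median fold change of 0.66. Among all tested genes 20.5% rose and 18.7% fell. PELO, the partner of ABCE1 in rescuing stalled ribosomes, was at 91.8, 58.3 and 52.3 FPKM in SP and 7.55, 17.2 and 28.9 FPKM in MP, a fold change of 1.99 ± 0.46 (limma adjusted p = 0.0140). ZNF598, a ubiquitin ligase that senses collided ribosomes, rose by 1.36 ± 0.21 and the initiation factor EIF5 by 1.32 ± 0.24. ABCE1, ABCF1, ABCF2 and ABCF3 together held 17.7% to 26.4% of the ABC sum in SP and 26.4% to 28.8% in MP.

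Subfamily A moves lipids and gave no call among its 5 tested genes, whose fold changes ran from −0.26 to 0.37. ABCA5, a lysosomal member, had the highest mean, at 2.97, 3.83 and 1.95 FPKM in SP and 3.81, 4.34 and 2.77 FPKM in MP (fold change −0.26, 95% interval from −0.88 to 0.36). ABCA2, an intracellular lipid transporter, was at 2.02, 1.01 and 1.47 FPKM in SP and 1.28, 0.444 and 1.11 FPKM in MP (fold change 0.37, 95% interval from −0.23 to 0.98). Both overlapped between the groups. ABCA3, known for packing lung surfactant, and ABCA9 were between 0.769 and 1.77 FPKM in all libraries, with limma adjusted p of 0.621 and 0.406.

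ABC genes with symbols outside the naming rule were read from a list of 3. TAP1, a subunit of the peptide pump that supplies MHC class I, was at 221, 157 and 73.8 FPKM in SP and 11.9, 31.2 and 53.2 FPKM in MP. It rose, with a fold change of 2.29 ± 0.58 (limma adjusted p = 0.0192), and SP replicate 3 was the closest to MP. Its partner TAP2 did not pass (fold change 0.97 ± 0.35, limma adjusted p = 0.0578), and CFTR, the chloride channel ABCC7, stayed between 0.0520 and 0.568 FPKM and was not tested. TAP2 and CFTR are named because only 3 genes make up that list.

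Of the 44 ABC rows, 18 did not reach the filter, and 16 of these were under 1 FPKM in every library. Here 0 means that the files list a gene at 0; at the depths above, a long transcript with a few fragments would appear as some hundredths of an FPKM. ABCC2, ABCC12, ABCD2, ABCG5 and ABCG8 are listed at 0 in all 6 libraries. ABCC2 exports conjugates from liver cells, and ABCG5 and ABCG8 form the plant sterol pump of liver and gut. ABCA12, ABCA13, ABCB5, ABCC11 and ABCC8, the sulphonylurea receptor SUR1, were at or under 0.0748 FPKM wherever they had a value.

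A few of the low genes had values in 1 population only. ABCG4, a sterol transporter relative of ABCG1, had 0.858, 0.192 and 0.480 FPKM in MP and is listed at 0 throughout SP. ABCA4, of the retina, and ABCC6, known from soft tissue calcification, are listed at 0 in the 3 MP libraries, with 0.0253 to 0.0605 and 0.00886 to 0.0806 FPKM in SP. The values of ABCA4 and ABCC6 correspond to few fragments. Those of ABCG4 in MP were well above the 0.0282 to 0.0448 FPKM that 1 fragment on a transcript of 1 kb is worth there. No fold is given for these genes.

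**Figure D4:**
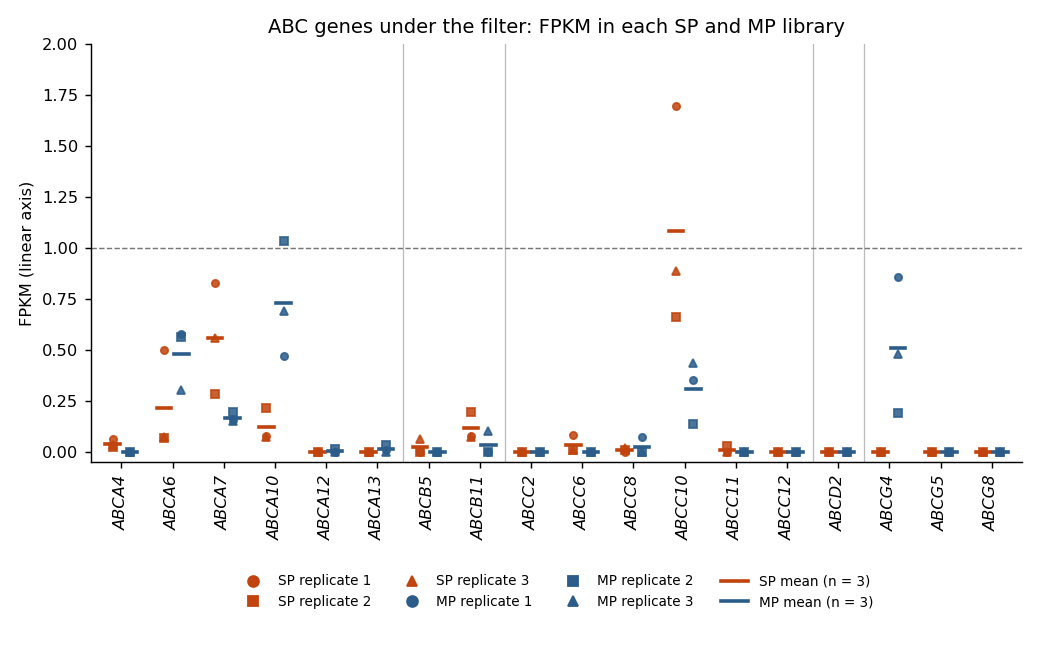
FPKM on a linear axis of the 18 ABC genes that did not reach 1 FPKM in 3 libraries, with 1 symbol for each library (red SP, blue MP), a short line for each group mean and a dashed line at 1 FPKM. Only ABCC10 in SP replicate 1 (1.69) and ABCA10 in MP replicate 2 (1.03) pass the dashed line.

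Among the rest, ABCC10, a multidrug exporter, was at 1.69, 0.660 and 0.888 FPKM in SP and 0.353, 0.138 and 0.436 FPKM in MP, and ABCA7, a phospholipid transporter, at 0.830, 0.281 and 0.560 FPKM in SP and 0.156, 0.195 and 0.153 FPKM in MP. Both had their SP values above their MP values. ABCA10 lay on the other side, at 0.0788, 0.214 and 0.0723 FPKM in SP and 0.472, 1.03 and 0.690 FPKM in MP. When the filter was dropped, ABCA10 passed as lower in SP (fold change −0.62 ± 0.14, limma adjusted p = 0.0314), while ABCG4, ABCC10 and ABCA7 did not pass (limma adjusted p = 0.052, 0.0822 and 0.0899). With mitochondrial and ribosomal protein genes left out and the rest rescaled, ABCC10 met the filter and rose. Its MP values as deposited were all under 1 FPKM. ABCA6, at 0.0685 to 0.577 FPKM, and ABCB11, the bile salt export pump, at up to 0.196 FPKM, overlapped between the groups.

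Several ABC genes lie next to each other. ABCB9, ABCC10 and ABCC11 are also listed with the same spans as OGFOD2, DLK2 and LONP2. On chromosome 19, ABCA5, ABCA10, ABCA6 and ABCA9 follow each other with gaps of 10.9, 3.82 and 4.60 kb, and none of the 2 that were tested, ABCA5 and ABCA9, passed. ABCC1 and ABCC6 are 5.00 kb apart on chromosome 25, ABCC1 at 2.35 to 7.42 FPKM and ABCC6 at no more than 0.0806 FPKM. ABCF3 and ABCC5 are 155 kb apart on chromosome 1, and ABCB8 and ABCF2 165 kb apart on chromosome 4. ABCG5 and ABCG8, 14 bases apart on chromosome 11, and ABCC12 and ABCC11, 43.1 kb apart on chromosome 18, were all under 0.03 FPKM in every library.

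The endothelial markers were set beside the exporters library by library, since MP replicate 3 was the MP library nearest to SP in both. In the order SP replicates 1 to 3 and MP replicates 1 to 3, the summed marker level was 3537, 2446, 2196, 263, 418 and 1280 FPKM. Taken as a percentage of this sum, of which the exporters are not part, ABCB1 was at 3.15%, 2.21% and 3.56% in SP and 1.43%, 1.08% and 1.32% in MP, without overlap. ABCG2 lay lower in SP by the same measure, at 3.91%, 4.00% and 3.01% against 6.49%, 5.66% and 5.61% in MP. ABCG1 overlapped, at 3.47%, 2.30% and 3.61% in SP and 2.06%, 1.87% and 3.15% in MP. So did ABCB4, at 0.145%, 0.0710% and 0.165% in SP and 0.132%, 0.0286% and 0.0196% in MP. These ratios are descriptions, and the part of endothelial RNA in the fold changes of the exporters was not tested.

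**Figure D5:**
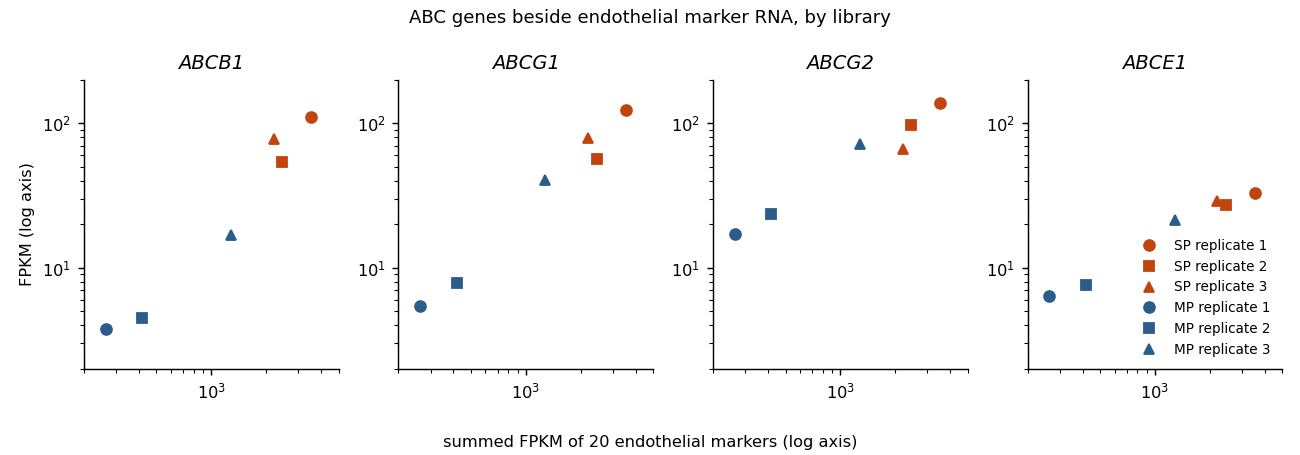
FPKM of ABCB1, ABCG1, ABCG2 and ABCE1 in each library against the summed FPKM of 20 endothelial markers, both on log axes, with 1 symbol for each library (red SP, blue MP). MP replicate 3, at a marker sum of 1280 FPKM, stands between the other MP libraries and SP in ABCB1, ABCG1 and ABCE1, and above SP replicate 3 in ABCG2.

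Regulators known to act on the exporter genes were read from a list of 12, of which 10 were tested, 5 rose, 2 fell and 3 did not pass (median fold change 0.84). EPAS1, a hypoxia-inducible factor abundant in endothelium, was at 270, 169 and 148 FPKM in SP and 11.6, 26.0 and 63.0 FPKM in MP (fold change 2.77 ± 0.55). NFE2L2, which switches on genes of antioxidant defence and export, was at 81.8, 49.2 and 67.6 FPKM in SP and 27.4, 27.7 and 31.0 FPKM in MP (fold change 1.15 ± 0.25). PGR, the progesterone receptor, fell by 2.33 ± 0.46, with 0.542, 2.01 and 2.01 FPKM in SP and 18.3, 13.3 and 5.35 FPKM in MP. The other calls are named after their values were seen: HIF1A, AHR and ARNT rose, with fold changes of 1.93, 2.24 and 0.97, and the oestrogen receptor ESR1 fell by 1.89. The drug-sensing receptors NR1I2 and NR1I3 were listed at 0 in all MP libraries, and NR1I3 also in all SP libraries.

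Genes of glutathione synthesis and conjugation, which make the cargo of ABCC1, moved in both directions. Of 14 tested entries of 13 genes 2 rose, 8 fell and 4 did not pass, with a median fold change of −1.14. LTC4S, which makes leukotriene C4, was at 2.97, 3.87 and 4.98 FPKM in SP and 97.3, 123 and 176 FPKM in MP, and fell by 4.73 ± 0.29. The transferases GSTM1, in both its entries, and GSTM3 fell as well, with fold changes of −4.35 and −3.58 for GSTM1 and −4.30 for GSTM3. GCLM and GCLC, the subunits of the enzyme that starts glutathione synthesis, rose by 2.09 ± 0.35 and 1.41 ± 0.25 and are named after their values were seen. LTC4S is also a mast cell gene, and of 5 tested mast cell markers 4 fell, HPGDS and FCER1A among them being under 1 FPKM in every SP library and so fixed in direction, with sums of 14.9 to 34.0 FPKM in SP and 408 to 986 FPKM in MP. Most of the SP sum was KIT, which did not pass, with means of 21.9 FPKM in SP and 12.2 FPKM in MP. Another mast cell marker, MS4A2, is listed at 0 in 2 SP libraries, and the part of mast cell RNA in the values of LTC4S was not tested.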

How the data were processed

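RNA of sorted SP and MP cells was sequenced from stranded poly(A) libraries, per the labels' protocols. The submitters' processing notes name cutadapt 2.5, HISAT2 2.1.0 and the build ARS-UCD1.2. Which tool computed the values, with which annotation, and whether it used strand is not given in the sources used here. Values were deposited as FPKM, as the file headers say, and summed to 647501 to 963629 per library over named genes, with no further scaling recorded. A row that pools 662 symbols without a gene name, none of them an ABC gene, held 0.18% to 1.91% of the values and was left out.

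The titles gave the groups. A gene was tested if 3 or more of the 6 libraries reached 1 FPKM. The fit used log2(FPKM + 1) and limma (version 3.58.1, under R version 4.3.3; eBayes with a trend, two-sided), and p-values were adjusted by Benjamini-Hochberg over all 12127 genes, with a threshold of 0.05. Alternatives changed the pseudocount, filter, scaling, variance trend, replicate block and libraries. Depth was read from the lowest values at loci of 600 to 4000 bp. The fit was tested on simulated data. The simulation for the depth estimate took lengths as known, so it could not check the use of whole locus spans, and the depths are approximate. Values in every library are given for ABCG2, ABCB1, ABCC1, each ABC gene that passed and the 3 highest others of a subfamily, with up to 3 called genes from each further list by smallest p. The members and lists were chosen with earlier results of these data known. Chromosome numbers came from symbols shared with a gene table of ARS-UCD2.0, and coordinates from the files, written from 1. Sequences were not used here. Values of some single genes are not reported here; they remain in the counts and sums.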

Additional observations from a re-analysis of the deposited data

How the results depend on the processing

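The number of ABC genes that rose in SP, 7 as reported, was 4 with no filter on low values, and the number of those that fell, 2 as reported, was 0 at a mean of at least 5 FPKM and after rescaling to a sum of 1e+06, and 1 with quantile normalization or with mitochondrial and ribosomal protein genes left out. At a mean of at least 5 FPKM only 10 ABC genes were tested. Leaving out 1 library, or both libraries of a number, gave 0 to 7 ABC genes that rose and 0 to 4 that fell, 105 to 2574 and 246 to 1881 over all genes, and 0 to 28 and 6 to 20 over the listed genes that are not cell type markers, with 18 of the latter rising with no filter. Rescaling shifted the median of all genes to 0.19 and the share of calls higher in SP from 52.3% to 68.0%; the log2 ratio of the subfamily sums went from 0.02 to 0.23 for A and from 0.90 to 1.14 for F. Without 1 library that ratio ran from 1.02 to 2.09 for E and from 1.37 to 2.76 for G, highest without MP replicate 3. With the replicate number as a block 7 ABC genes rose and 3 fell; ABCG2 did not pass (limma adjusted p = 0.0679), and ABCC5 and ABCC9 did (0.0227 and 0.0497). The numbers were not taken as pairs, because the labels do not say that a number marks an animal. Deviations of same-numbered libraries correlated at 0.10, 0.53 and −0.09, and those of libraries with different numbers at −0.42 to 0.28. With 3 libraries in each group these values cannot settle whether the libraries are paired. Signs turned only in genes that did not pass: ABCA3 with quantile normalization (0.014), ABCD4 without MP replicate 3 (−0.099) and, without the libraries numbered 3, ABCB9 (0.032), ABCD3 (−0.051) and ABCD4 (−0.070). With libraries left out these ran from −0.30 to 0.032 for ABCB9, from −0.051 to 0.35 for ABCD3 and from −0.099 to 0.47 for ABCD4. The cause of these changes was not tested. FPKM hold no counts, and SP was shallower than MP, which limits what can be said of genes near 0 in SP.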

Other observations

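Carriers that bring drugs and organic ions into the cell were read from a list of 20, of which 13 were tested; 5 rose, 1 fell and 7 did not pass, with a median log2 fold change of 0.25. SLCO2A1, a prostaglandin carrier, was at 36.7, 36.2 and 30.8 FPKM in SP and 3.35, 4.57 and 12.5 FPKM in MP, and rose (log2 fold change 2.36 ± 0.41, limma adjusted p = 0.00583, ± giving the SE). SLCO1A2, an organic anion carrier known from the blood-brain barrier, was at 13.7, 7.63 and 8.84 FPKM in SP and 0.359, 0.626 and 3.28 FPKM in MP, and MP replicate 3 was again the highest of its group. SLC15A1, a peptide carrier, reached 1 FPKM in no MP library, so only a higher level in SP could bring it into the test. The other calls are named after their values were seen: SLCO4A1 and SLCO2B1 rose, by 2.08 and 1.12, and SLC22A17 fell by 1.10.

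Of 7 peptide loading genes, which work beside TAP1 and TAP2, TAPBPL and TAPBP rose, none fell and 5 did not pass (median log2 fold change 0.54). Over all tested genes 20.5% rose and 18.7% fell. TAPBPL, a peptide editor, was at 17.4, 17.2 and 15.4 FPKM in SP and 8.48, 7.34 and 8.06 FPKM in MP. TAPBP, which bridges the peptide pump and MHC class I, was at 272, 238 and 149 FPKM in SP and 87.0, 114 and 141 FPKM in MP, with SP replicate 3 just above MP replicate 3.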
